A study of Homo sapiens with 6 samples.

Results

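The 38 genes described here act in the passage from G1 into S phase, in DNA replication, or in linked chromatin, checkpoint and repair steps. They were taken by symbol from a list of G1/S and DNA replication genes driven by E2F transcription factors. The list was chosen with earlier results of these data known. All 38 were found among the 57445 genes of the count table, and all 38 are among the 17129 genes that had enough reads to be tested. The RNA sequencing covers 6 libraries of H358 cells, a human lung cancer line of the non-small cell type, grown in RPMI with 10% fetal bovine serum. WT is the parental line with wild-type BRMS1, and C1 and C2 are isogenic clones listed with BRMS1v2 A273V on both copies, with 2 libraries each. BRMS1 is a metastasis suppressor found in a histone deacetylase co-repressor complex. Each clone is a single line, and the labels do not say how it was made, what their replicate numbers mark, or whether libraries of the same group came from different cultures. The p-values below therefore measure the spread between these libraries, which may be technical, and gene counts do not show the variant itself.

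In G1, the RB family of proteins holds E2F transcription factors in check. Cyclin D and cyclin E kinases phosphorylate RB, E2F factors are released, and they switch on genes for origin licensing, nucleotide synthesis and the replication fork. Licensing loads the MCM helicase ring onto origins, and CDC45 and the GINS complex then turn it into an active helicase. Transcripts of these genes are low in resting cells and peak around the start of S phase, which is why they are widely read as a sign of proliferation. Cyclin E is itself an E2F target, so that the step feeds back on itself.

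The best known DNA element of these genes is the E2F site. Promoters of 300 bases, 250 before and 50 after the start, were taken from RefSeq on GRCh38.p14 for the 34 genes with an entry, with the start that is listed first. MCM4, MCM5, CCNE2 and E2F8 have no entry there. The letters searched on both strands were TTTCCCGC, TTTCGCGC, TTTGCCGC and TTTGGCGC, each overlapping match was counted, and 19 of the 34 promoters (55.9%) held at least 1. The share was 5.16% among 10595 promoters of tested genes and 3.33% among all 27305 promoters of this length. The list was drawn up as E2F-driven genes, so a higher share follows in part from how it was made. The stretches below are chosen examples that lie wholly before the start. They come from a licensing factor, a helicase subunit, an E2F gene, a nucleotide enzyme, the sliding clamp and an MCM subunit. Other matches lie farther from the start, such as that of POLA1 at position -130. The last base of each stretch is position -2 for CDT1, -1 for GINS2 and E2F1, -6 for TYMS, -26 for PCNA and -53 for MCM6, with -1 the base just before the start. Capitals mark the E2F letters on either strand, and each stretch reads 5′ to 3′ along the gene. They lie at chr16:88803728-88803787 on the plus strand for CDT1, chr16:85688955-85689014 on the minus strand for GINS2, chr20:33686386-33686445 on the minus strand for E2F1, chr18:657588-657647 on the plus strand for TYMS, chr20:5126648-5126707 on the minus strand for PCNA and chr2:135876496-135876555 on the minus strand for MCM6.
CDT1: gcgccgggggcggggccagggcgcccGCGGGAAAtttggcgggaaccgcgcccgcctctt
GINS2: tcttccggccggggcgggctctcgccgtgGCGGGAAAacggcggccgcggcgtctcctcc
E2F1: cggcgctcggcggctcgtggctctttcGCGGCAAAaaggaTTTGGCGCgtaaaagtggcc
TYMS: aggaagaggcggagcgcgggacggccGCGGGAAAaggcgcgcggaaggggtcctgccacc
PCNA: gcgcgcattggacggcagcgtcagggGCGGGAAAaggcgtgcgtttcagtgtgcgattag
MCM6: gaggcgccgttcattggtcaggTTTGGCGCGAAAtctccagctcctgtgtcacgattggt

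In E2F1 the capitals form 2 separate matches, and in MCM6 they form 2 matches that overlap on opposite strands. No match was found in the windows of CDC45, MCM10, CCNE1, MYBL2, RRM1, RRM2, TK1, FEN1, RFC4, PRIM1, CHAF1A, CHAF1B, SLBP, BRCA1 and BRIP1. A match describes the letters and is not a measured site, and no match says only that these letters are not in that window. The CCAAT box, another element of cell cycle promoters, was found in 19 of the 34 (55.9%), against 36.5% of the promoters of tested genes. The cell cycle homology element, searched as TTTGAA or TTCGAA and known from genes of G2 and mitosis, was found in 3 of the 34 (8.82%), against 11.4%. In 24 promoters of G2 and mitosis genes, the E2F letters stood in 8.33%, CCAAT in 79.2% and the homology element in 66.7%.

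**Figure D1:**
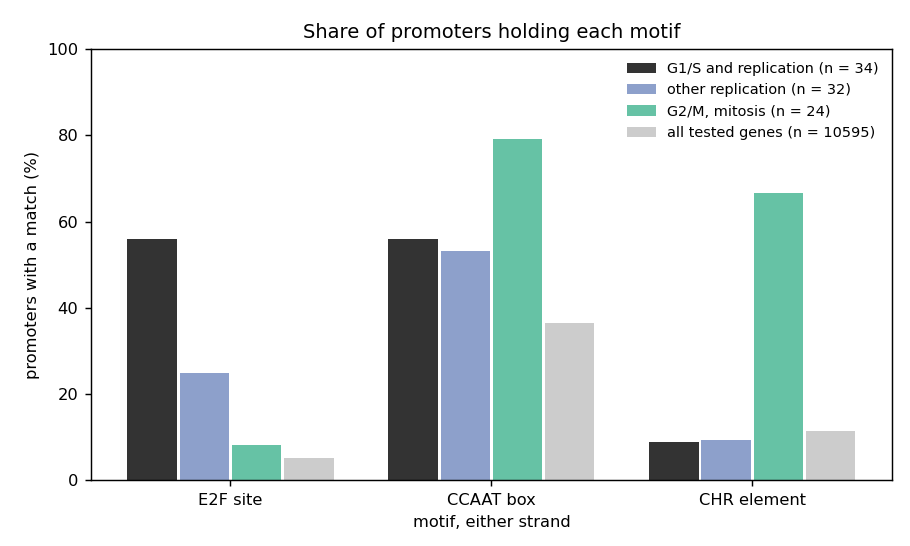
Share of 300-base promoters (vertical axis, %) with at least 1 match to the E2F, CCAAT or cell cycle homology (CHR) letters on either strand, for the genes described here, other replication genes, G2 and mitosis genes, and all tested genes with an entry. The E2F letters stand in 55.9% of the 34 promoters of the G1/S and replication genes, 25% of the 32 of other replication genes and 5.16% of those of all tested genes. The G1/S and replication genes were listed as E2F-driven, so their share is not independent of that choice.

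The libraries held between 27527867 and 37146270 gene counts. Mitochondrial genes took 7.38% to 8.67% of these in the 3 libraries numbered 1 and 5.01% to 6.83% in the 3 numbered 2. Markers of epithelial cells were high in all libraries, with summed levels of 5910 to 8390 CPM (read counts scaled to library size by the trimmed mean of M values) over 10 genes. Summed levels of the other marker lists were 39.1 to 70.4 CPM for fibroblasts (2 of 6 genes passed the filter, COL1A1 and LUM), 2.2 to 4.68 CPM for leukocytes (3 of 6) and 9.53 to 42.2 CPM for endothelium (3 of 6). The leukocyte gene PTPRC had 3 to 13 counts per library.

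These 38 genes were lower in the libraries numbered 2 than in those numbered 1, in the parental line and in both clones. Together they took 0.36% of the gene counts in WT replicate 1 and 0.111% in WT replicate 2. The C1 shares were 0.234% and 0.0897%, those of C2 0.319% and 0.106%. The summed level was 3540, 2460 and 3340 CPM in replicate 1 of WT, C1 and C2, and 1030, 895 and 1070 CPM in replicate 2. So each library numbered 1 stood above all 3 numbered 2. In RNA from whole cultures, fewer cells in S phase and less of these transcripts per cell cannot be told apart.

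A fit with the group and the replicate number tested this difference over all genes, with edgeR's quasi-likelihood test and Benjamini-Hochberg adjustment at a threshold of 0.05. All 38 fell, where 12.2% of the 17129 tested genes fell and 12.5% rose. The median log2 difference, replicate 2 minus replicate 1, was -1.71, against 0.00 over all tested genes. It ran from -0.70 for SLBP to -2.97 for RRM2, with edgeR adjusted p values between 5.6e-07 (TYMS) and 0.036 (MCM5). All 38 were lower in each of the 3 pairs of libraries, as were 28.3% of all tested genes. In 37 of the 38, every library numbered 2 lay below every library numbered 1, which held for 18.5% of all tested genes. CCNE1 is the exception, because C1 replicate 1 lay below replicate 2 of both WT and C2. Without C2 replicate 1 or 2, 33 of the 38 passed, where 2.34% and 2.45% of all tested genes fell. MCM5, CCNE1, POLA1, UHRF1 and SLBP no longer passed. CCNE1 also missed the threshold without either WT library (edgeR adjusted p of 0.084 and 0.093).

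**Figure D2:**
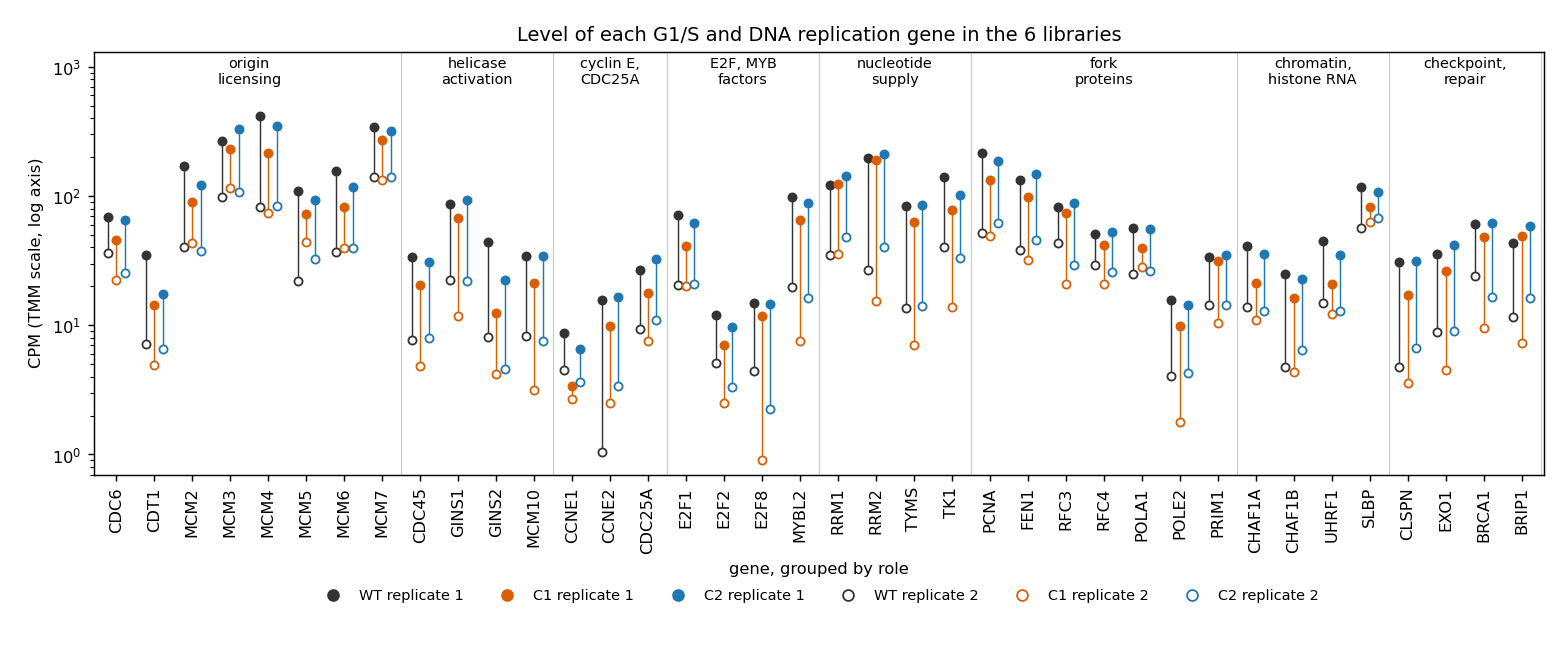
Level of each of the 38 genes (horizontal axis, grouped by role) in the 6 libraries, in CPM on a log axis; filled circles are replicate 1, open circles replicate 2, and lines join the 2 libraries of a group. Each open circle lies below the filled circle of its group, from a 1.26-fold gap for CCNE1 in C1 to a 15-fold gap for CCNE2 in WT.

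Levels can be compared between genes only per length, here as CPM per kilobase of exon, for the 37 genes with a length. PCNA, the sliding clamp of the fork, had the highest mean level over the 6 libraries at 79.0 CPM per kilobase. The helicase subunits MCM3 and MCM7 followed at 52.3 and 50.8, then SLBP at 40.8 and TK1 at 36.3. The lowest were the regulators E2F2 at 1.21, CCNE2 at 1.86, CCNE1 at 1.93 and E2F8 at 1.97. Their order is less firm than that contrast, since PCNA itself ran from 33.6 to 146 CPM per kilobase and E2F2 from 0.459 to 2.19. Even the lowest counts were well above 0: E2F8 had 27 in C1 replicate 2 and CCNE2 had 31 in WT replicate 2.

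Origin licensing is the work of CDC6 and CDT1, which load the ring of MCM2 to MCM7 onto DNA. MCM4, the member of this group with the largest fall, had 415 and 81.7 CPM in WT replicates 1 and 2, 216 and 74.2 in C1, 347 and 83.9 in C2. The replicate 2 libraries lay close together, while those numbered 1 spread with C1 lowest. Its log2 difference between the numbers was -1.98 (SE 0.15, edgeR adjusted p = 7.8e-06). CDC6, with the smallest fall of the 8, had 68.8 and 36.1 CPM in WT, 45.4 and 22.2 in C1, 65.7 and 25.5 in C2. C1 was the lowest of the 3 lines in both numbers, and the difference between numbers was -1.11 (SE 0.14, edgeR adjusted p = 0.00013). MCM2 had 170 and 40.0 CPM in WT, 90.5 and 43.4 in C1, 122 and 37.3 in C2. Its difference was -1.62 (SE 0.18, edgeR adjusted p = 0.00027), and the order of the lines seen in replicate 1 was absent from replicate 2. CDT1, the loading factor that geminin inhibits, had 35.0 and 7.13 CPM in WT, 14.4 and 4.91 in C1, 17.5 and 6.50 in C2. Here both clones lay below WT in both numbers, by more in replicate 1.

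The fall of the licensing genes was measured in each line. Its median over the 8 genes was -2.08 in WT, -1.04 in C1 and -1.55 in C2, and 6 of the 8 fell most in WT. MCM5 showed it most plainly, with 110 and 21.9 CPM in WT, 72.3 and 43.9 in C1, 93.0 and 32.6 in C2. The fold between numbers was 5.03 in WT, 1.65 in C1 and 2.86 in C2. Whether the fall differed between lines was not tested, for these genes or for the groups that follow.

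Helicase activation needs CDC45 and the GINS complex, here GINS1 and GINS2, and MCM10, which helps the active helicase off the origin. MCM10 had 34.6 and 8.24 CPM in WT, 21.1 and 3.14 in C1, 34.6 and 7.55 in C2. C2 matched WT closely and C1 was lowest in both numbers, with a difference between numbers of -2.32 (SE 0.18, edgeR adjusted p = 4.4e-06). CDC45 had 33.9 and 7.74 CPM in WT, 20.4 and 4.84 in C1, 30.7 and 7.95 in C2. It fell by 2.05 on the log2 scale (SE 0.16, edgeR adjusted p = 4.8e-06), the smallest fall of these 4 genes. The medians of this group were -2.09 in WT, -2.30 in C1 and -2.14 in C2, but single genes spread around them. The fold between numbers was 5.38 in WT and 3 in C1 for GINS2, and 4.19 and 6.73 for MCM10.

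Cyclin E, encoded by CCNE1 and CCNE2, activates CDK2 at the G1/S boundary, and the phosphatase CDC25A removes the inhibitory phosphates from that kinase. The 2 cyclin E genes lay near opposite ends of the set. CCNE2 had 15.6 and 1.04 CPM in WT, 9.95 and 2.51 in C1, 16.6 and 3.37 in C2. WT had the lowest replicate 2 value, and the difference between numbers was -2.66 (SE 0.35, edgeR adjusted p = 0.0012). CCNE1 had 8.76 and 4.54 CPM in WT, 3.36 and 2.67 in C1, 6.56 and 3.62 in C2. The numbers overlapped across lines, and the difference was -0.72 (SE 0.22, edgeR adjusted p = 0.029). CDC25A fell by 1.44 (SE 0.16, edgeR adjusted p = 6.1e-05).

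Among the transcription factors, E2F1 and E2F2 activate S phase genes, E2F8 represses them later in the cycle, and MYBL2 links the G1/S programme to that of mitosis. E2F1 had 70.9 and 20.4 CPM in WT, 41.0 and 20.2 in C1, 61.9 and 20.9 in C2. The 3 libraries numbered 2 were nearly level, and the difference between numbers was -1.46 (SE 0.16, edgeR adjusted p = 6.1e-05). E2F8 had 14.8 and 4.44 CPM in WT, 11.8 and 0.902 in C1, 14.7 and 2.26 in C2. Its libraries numbered 1 were alike, and those numbered 2 spread widely around a difference of -2.62 (SE 0.34, edgeR adjusted p = 0.00088). E2F2 had 11.9 and 5.12 CPM in WT, 6.98 and 2.51 in C1, 9.62 and 3.31 in C2. C1 was lowest in both numbers, as for CDC6, and the difference was -1.41 (SE 0.20, edgeR adjusted p = 0.00033). MYBL2 had 97.6 and 19.9 CPM in WT, 65.0 and 7.58 in C1, 89.0 and 16.2 in C2, which is again lowest in C1 in both numbers. It fell by 2.61 between the numbers (SE 0.17, edgeR adjusted p = 2.4e-06).

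The 2 largest differences of the 38 genes, those of RRM2 and TYMS, were in nucleotide supply. RRM1 and RRM2 are the large and small subunits of ribonucleotide reductase, TYMS makes thymidylate and TK1 salvages thymidine. RRM2 had 198 and 26.8 CPM in WT, 191 and 15.3 in C1, 213 and 40.0 in C2. The libraries numbered 1 were within a narrow band, and the difference between numbers was -2.97 (SE 0.23, edgeR adjusted p = 0.00014). RRM1 had 121 and 34.9 CPM in WT, 123 and 35.5 in C1, 143 and 48.2 in C2. WT and C1 were level in both numbers, and the difference was -1.72 (SE 0.13, edgeR adjusted p = 2.8e-06). Whether the subunits of this enzyme fell by different amounts was not tested. TYMS had 83.9 and 13.5 CPM in WT, 62.7 and 7.08 in C1, 85.3 and 14.2 in C2. Its difference of -2.78 (SE 0.16, edgeR adjusted p = 5.6e-07) had the lowest adjusted p of the 38, and C2 lay beside WT. TK1 had 139 and 40.3 CPM in WT, 77.6 and 13.9 in C1, 102 and 33.0 in C2. It was lowest in C1 in both numbers and differed between them by -1.95 (SE 0.17, edgeR adjusted p = 1.8e-05).

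At the fork, PCNA clamps polymerases to DNA, the RFC complex loads it, FEN1 trims Okazaki fragments, POLA1 and PRIM1 belong to the primase complex, and POLE2 is a subunit of the leading strand polymerase. PCNA had 215 and 52.1 CPM in WT, 132 and 49.4 in C1, 187 and 61.7 in C2, a difference between numbers of -1.69 (SE 0.14, edgeR adjusted p = 7.3e-06). Its libraries numbered 2 were close together and C1 was lowest among those numbered 1. POLE2 had 15.7 and 4.07 CPM in WT, 9.92 and 1.77 in C1, 14.4 and 4.24 in C2, a difference of -2.04 (SE 0.21, edgeR adjusted p = 3e-05). POLA1 had 56.3 and 24.9 CPM in WT, 39.7 and 28.2 in C1, 55.8 and 26.5 in C2, a difference of -0.92 (SE 0.16, edgeR adjusted p = 0.0011). As with E2F1, the lines differed for POLA1 in replicate 1 and were nearly level in replicate 2. FEN1, RFC3, RFC4 and PRIM1 fell by 0.94 (RFC4) to 1.69 (FEN1) on the log2 scale.

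CHAF1A and CHAF1B belong to the chromatin assembly factor that places histones behind the fork, UHRF1 maintains DNA methylation there, and SLBP binds the end of histone transcripts. CHAF1B had 24.9 and 4.71 CPM in WT, 16.2 and 4.34 in C1, 22.8 and 6.47 in C2, a difference of -2.04 (SE 0.19, edgeR adjusted p = 1.4e-05). SLBP had 118 and 56.8 CPM in WT, 81.9 and 63.4 in C1, 108 and 67.8 in C2. All 3 libraries numbered 1 were above those numbered 2, but C1 only by a factor of 1.29. The difference was -0.70 (SE 0.14, edgeR adjusted p = 0.004), the smallest of the 38, and all 4 genes of this group fell most in WT. CHAF1A and UHRF1 fell by 1.33 and 1.27.

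CLSPN carries the replication checkpoint signal to CHK1, EXO1 is a repair exonuclease, and BRCA1 and the helicase BRIP1 act in repair by recombination. CLSPN had 31.1 and 4.74 CPM in WT, 17.0 and 3.57 in C1, 31.5 and 6.68 in C2. C2 was level with WT or above it, and the difference between numbers was -2.40 (SE 0.18, edgeR adjusted p = 3.4e-06). BRCA1 had 61.2 and 23.9 CPM in WT, 48.0 and 9.52 in C1, 61.8 and 16.6 in C2. The lines were closer in replicate 1 than in replicate 2, and the difference was -1.85 (SE 0.18, edgeR adjusted p = 4.4e-05). EXO1 and BRIP1 fell by 2.24 and 2.16.

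**Figure D3:**
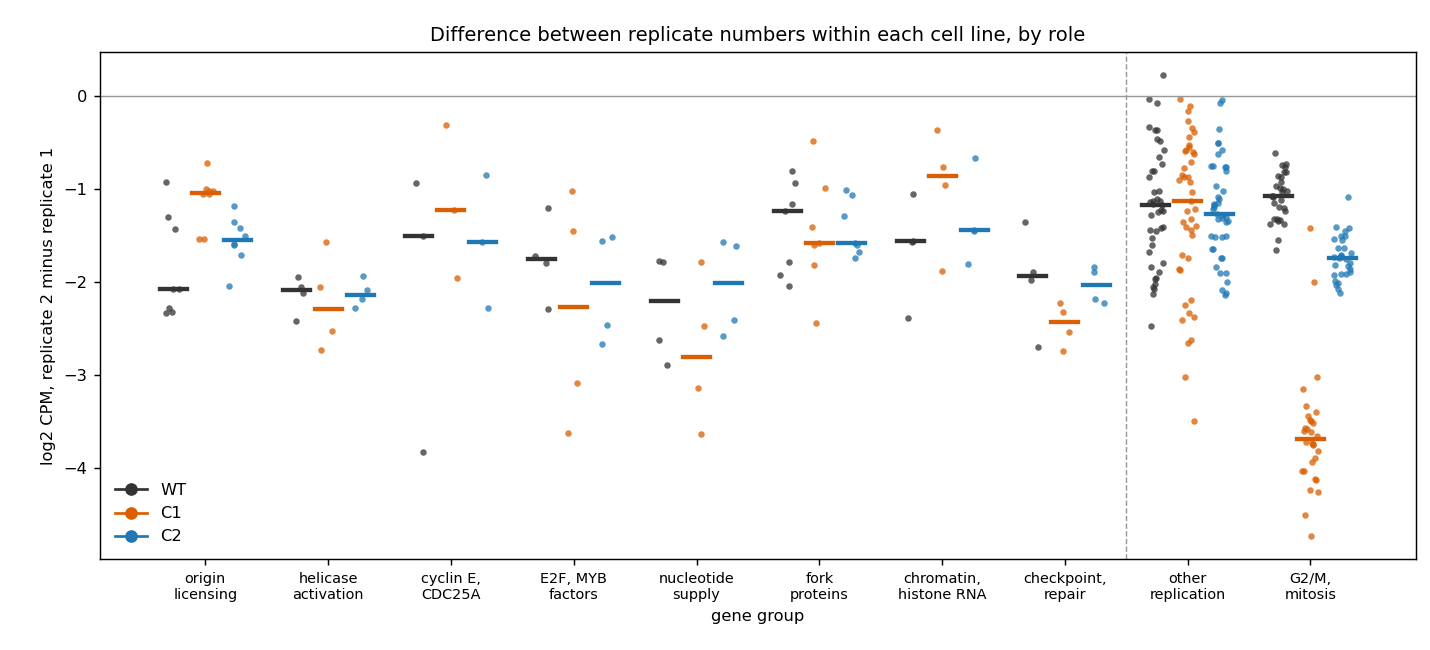
Log2 difference in CPM, replicate 2 minus replicate 1 (vertical axis), within WT, C1 and C2, for the genes of each role and, right of the dashed line, for other replication genes and G2 and mitosis genes; a point is 1 gene and a bar the median of a group. Licensing genes have medians of -2.08, -1.04 and -1.55 in WT, C1 and C2, and the G2 and mitosis genes have -1.08, -3.69 and -1.74.

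Other replication genes and genes of G1 control were read against the same 12.2% of tested genes that fell between the numbers and 12.5% that rose. Of 43 other replication genes, 38 fell and 0 rose, with a median of -1.21. TICRR (-2.51), ORC1 (-2.18) and the histone chaperone ASF1B (-2.15) fell most, and ORC4 (0.03), RFC1 (-0.19) and ORC2 (-0.23) were nearest to 0 and did not pass, nor did ORC5 and TOP2A. Of 26 tested genes of G1 control, 11 fell and 0 rose, with a median of -0.32. CCNA2, cyclin A2, which acts in S phase and G2, had the largest difference of that list and did not pass (-2.52, SE 0.90, edgeR adjusted p = 0.20). It had 110 and 42.2 CPM in WT, 150 and 7.05 in C1, 160 and 39.3 in C2. CDKN2C, an inhibitor of CDK4 and CDK6, fell by 2.13 (SE 0.34, edgeR adjusted p = 0.0041), FBXO5 by 1.81, E2F7 by 1.33 and CCND1, cyclin D1, by 0.46 (SE 0.13, edgeR adjusted p = 0.018). E2F4 (0.02), CCND3 (-0.02) and E2F6 (-0.08) were nearest to 0. The CDK inhibitors CDKN1A (0.30) and CDKN1B (0.16), and MYC (0.47), did not pass (edgeR adjusted p of 0.39, 0.39 and 0.064).

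Genes of G2 and mitosis were lower in replicate 2 too, by amounts that varied between the lines. All 30 were lower in all 3 pairs, as were 28.3% of all tested genes, and their median was -2.14. Yet where 12.2% of all tested genes fell, edgeR called 2 of the 30, ECT2 (-1.31) and CCNF (-1.46). These were the smallest differences of the list, followed by TPX2 (-1.72, edgeR adjusted p = 0.25), and the largest were those of KIF20A (-2.43), TTK (-2.40) and CENPE (-2.36), with edgeR adjusted p of 0.26, 0.18 and 0.23. Their median difference was -1.08 in WT, -3.69 in C1 and -1.74 in C2, and 29 of the 30 fell most in C1. KIF20A, a kinesin of cell division, had 132 and 55.6 CPM in WT, 132 and 4.91 in C1, 142 and 42.1 in C2, with an SE of 1.06 for its difference. Among the 38 genes described here, 13 fell most in C1 and 20 in WT. Some reference genes moved with the number as well, with 6 of 15 lower (ACTB, GAPDH, HPRT1, PPIA, GUSB and YWHAZ) and 0 higher. The shares of all tested genes were 12.2% lower and 12.5% higher, and the median of the 15 was -0.33.

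The clones were then compared with the parental line. With the replicate number left out of the fit, edgeR called none of the 38 in C1 against WT. That fit called 2 of 17129 genes (0.0117%, both lower), and 1348 genes had an unadjusted p under 0.05, CCNE1 among them (-1.14, SE 0.46). DESeq2 and limma-voom without the number also called none of the 38. The median log2 difference of the 38 was -0.56, with 36 of them negative, and the SE of single genes reached 1.41. Each line holds both numbers in that fit, and the median with the number as a term was -0.57. Leaving out 1 library leaves the numbers unequal between the lines. The median without the number then moved, to -1.65 without C1 replicate 1 and to 0.57 without WT replicate 1.

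Same-numbered libraries deviated from their group means together, so a blocked fit was also made, in which the number is a term of its own. In C1 against WT, 11 of the 38 then fell and 0 rose, where 4.07% of all tested genes fell and 2.96% rose. The median of the 38 was -0.57, against -0.01 over all tested genes. GINS2, the helicase subunit, had 43.8 and 8.14 CPM in WT, 12.5 and 4.18 in C1, 22.5 and 4.58 in C2, with WT highest in both numbers. It had the largest fall, -1.41 (SE 0.24, 95% interval -1.93 to -0.89, edgeR adjusted p = 0.0038; 0.82 without the block). TK1 fell by 1.16 (SE 0.20, edgeR adjusted p = 0.0059) and MCM10 by 1.01 (SE 0.22, edgeR adjusted p = 0.015). CCNE1 (-1.08), CDT1 (-0.95), MYBL2 (-0.95), E2F2 (-0.89), BRCA1 (-0.82), CDC45 (-0.71), CDC6 (-0.65) and TYMS (-0.65) also fell, with SE of 0.17 to 0.27 and edgeR adjusted p of 0.014 to 0.048. The 11 came from 6 of the 8 roles, with none among the fork proteins or the chromatin genes. Closest to the threshold among the others were GINS1 (-0.62, edgeR adjusted p = 0.055), POLE2 (-0.88, 0.057) and EXO1 (-0.69, 0.059). The roles reached depend on the setting. With the block, library totals also called POLE2, CHAF1A and UHRF1, and DESeq2 also called POLE2. All 11 edgeR calls were lost without either C2 library, although the WT and C1 libraries all stayed in the fit. Calls over the whole table dropped strongly in those fits as well, so their loss is not particular to these genes. Why they were lost was not tested. A fit without a WT or C1 library leaves that line a single library with no spread of its own. Its calls cannot show whether the result holds. The median lay between -0.57 and -0.45 when each library was left out in turn. That range is no independent check. A fit without a C2 library keeps every C1 and WT library. A fit without a C1 or WT library rests that line on the other number. The E2F letters stood in 5 of the 11 promoters (45.5%) and in 14 of the 23 others with an entry (60.9%).

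**Figure D4:**
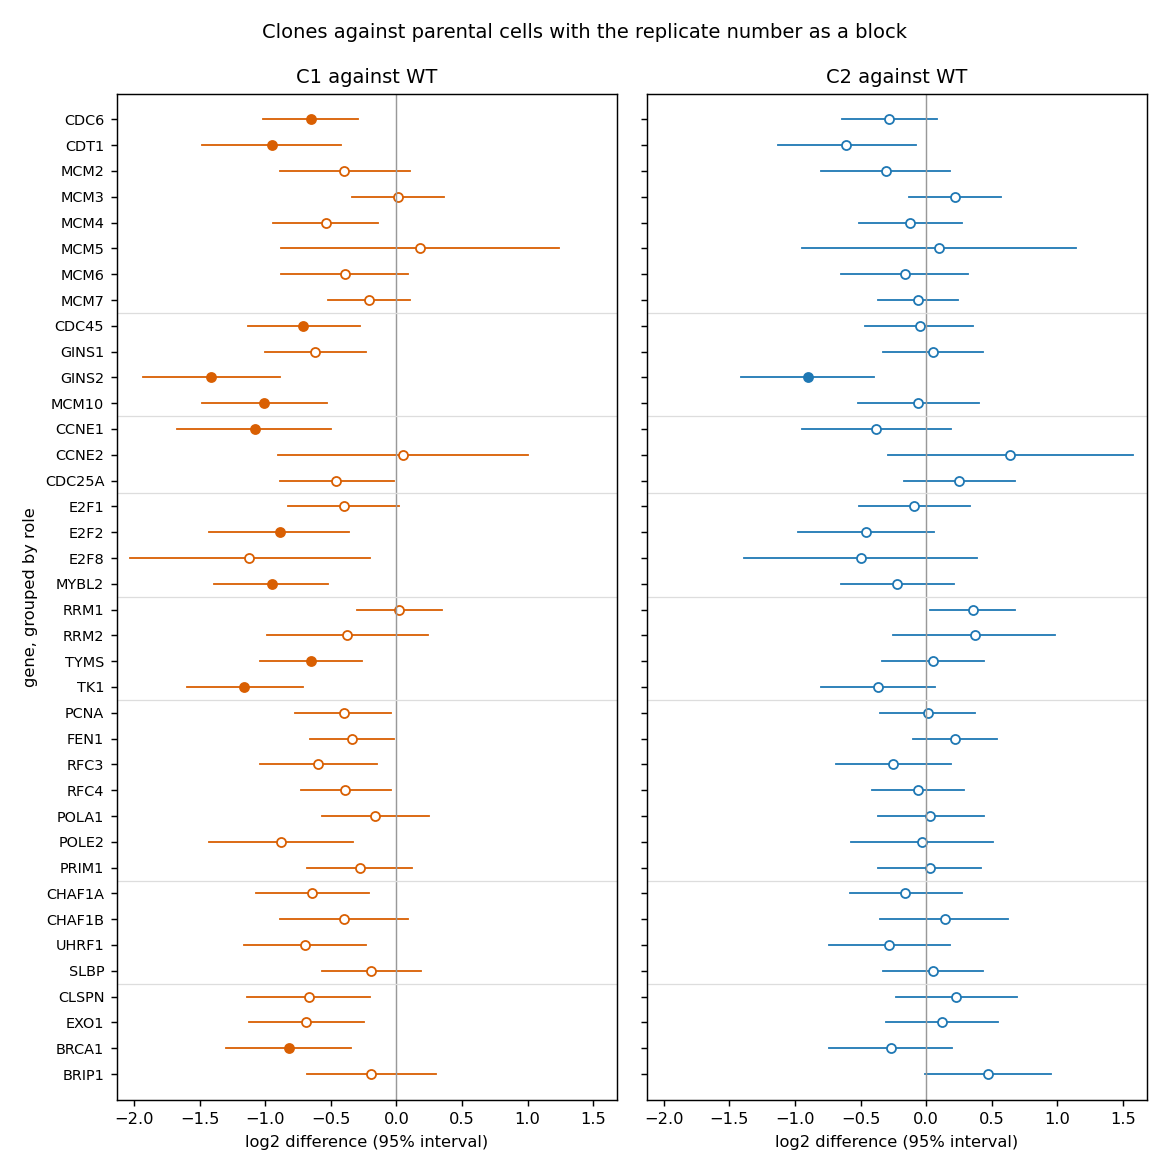
Log2 difference of each of the 38 genes (vertical axis, grouped by role) in C1 against WT and C2 against WT, from the blocked fit; lines are 95% intervals not adjusted for the number of genes, and filled points passed an adjusted p of 0.05 in edgeR. In C1, 11 points are filled and the median is -0.57, and in C2 only GINS2 is filled and the median is -0.06.

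Within the numbers, C1 lay below WT for 36 of the 38 genes in replicate 1 and for 30 in replicate 2, as did 8393 and 8755 of all 17129 tested genes. The medians were -0.60 and -0.47. In replicate 1 the 8 licensing genes had a median of -0.76 and the 4 nucleotide genes -0.24. In replicate 2 the licensing genes had a median of 0.02, with 4 of 8 below WT, while nucleotide genes had -0.86 and the E2F and MYB factors -1.20. E2F8 changed most between numbers, from -0.32 to -2.22, followed by CCNE2, from -0.65 to 1.21. In that same pair of libraries, all 30 genes of G2 and mitosis were lower in C1 than in WT, with a median of -2.46, against 7 of 30 and 0.17 in replicate 1. Their part in the values of C1 was not tested.

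**Figure D5:**
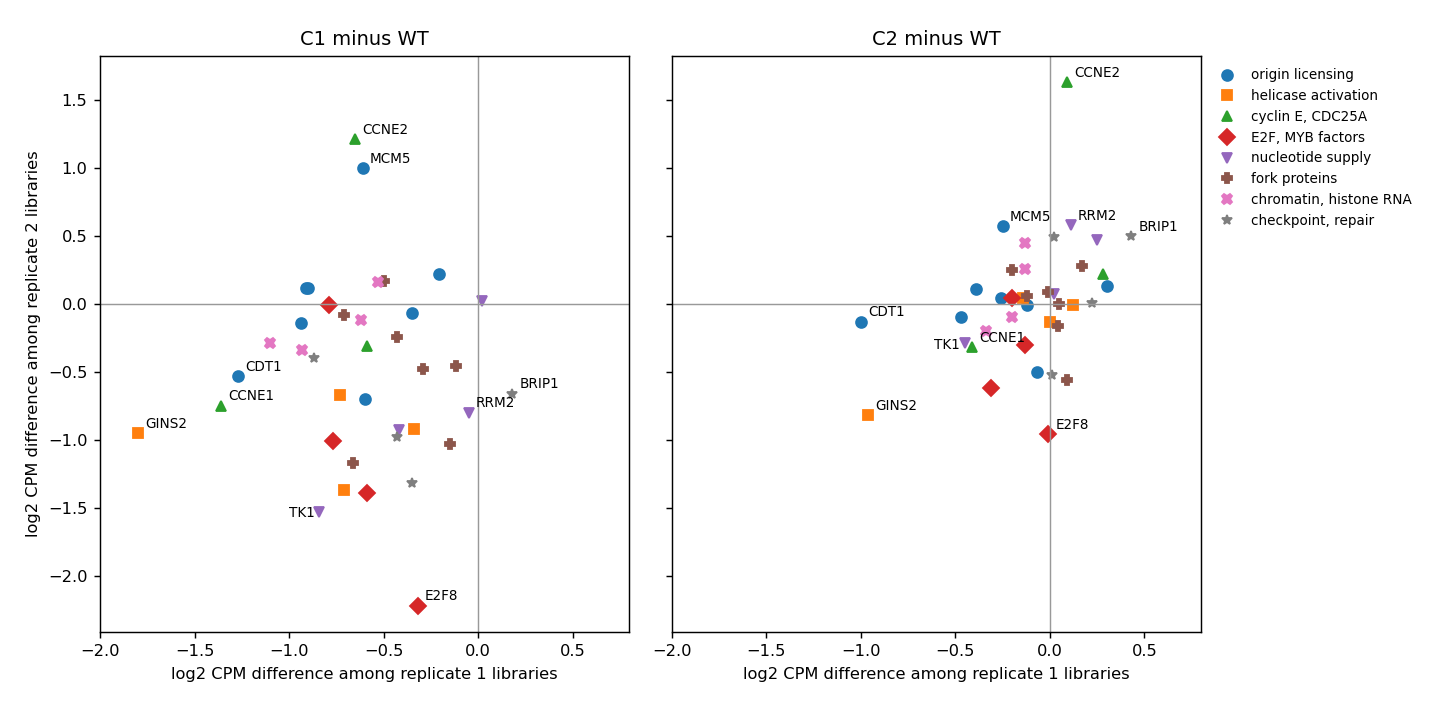
Log2 difference in CPM between a clone and WT among the replicate 1 libraries (horizontal axis) and among the replicate 2 libraries (vertical axis), left for C1 and right for C2; a point is 1 of the 38 genes, with colour and shape giving its role. For C1 most points lie left of 0 and below 0 (medians -0.60 and -0.47), and for C2 they gather around 0 (medians -0.09 and 0.03).

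In C2 against WT, GINS2 alone among the 38 passed, and only with the block. It fell by 0.90 (SE 0.23, 95% interval -1.41 to -0.40, edgeR adjusted p = 0.046), where 2.59% of all tested genes fell and 1.94% rose. A count of 1 among the 38 is near the share of tested genes that fell. GINS2 no longer passed without WT replicate 1 or without either C2 library. Calls over the whole table also dropped strongly without either C2 library. Without the block edgeR, DESeq2 and limma-voom called 0 of the 38, edgeR called 2 genes in all (0.0117%), and none of the 38 was among the 1156 genes with an unadjusted p under 0.05. The median of the 38 with the block was -0.06. C2 lay below WT for 22 of the 38 in replicate 1 and for 17 in replicate 2, as did 8062 and 8666 of all tested genes. For most genes the intervals still allowed sizeable differences: that of E2F1 ran from -0.51 to 0.33, that of PCNA from -0.35 to 0.37 and that of RRM2 from -0.25 to 0.98. The mean of both clones against WT, with the block, was lower for GINS2 (-1.16, edgeR adjusted p = 0.0028), TK1 (-0.76, 0.016), CDT1 (-0.78, 0.031) and MYBL2 (-0.59, 0.045), or 4 of 38, where 5.63% of all tested genes fell and 4.12% rose. Without either C2 library these calls were lost, while calls over the whole table dropped strongly too. Without the block 0 of the 38 passed in that comparison, which called 34 genes (0.198%) and had none of the 38 among 1677 genes with an unadjusted p under 0.05. Both comparisons with WT share its 2 libraries.

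The clones were also set against each other. C2 lay above C1 for all 38 genes in replicate 1, with a median log2 difference of 0.49, and for 33 of 38 in replicate 2, with a median of 0.44. Over all tested genes the counts were 8773 and 8603 of 17129. No gene passed in edgeR, with or without the block (0% of tested genes in each direction). With the block, 21 of the 38 and 642 of all 17129 genes had an unadjusted p under 0.05, and without it 0 of the 38 and 61 genes did. DESeq2 with the block called 20 genes, none of them among the 38, and limma-voom called 0. The largest differences with the block were those of MCM10 (0.94, 95% interval 0.47 to 1.42, edgeR adjusted p = 0.53) and CLSPN (0.90, 0.43 to 1.37, edgeR adjusted p = 0.70). That of TK1 was 0.79 (0.35 to 1.23, edgeR adjusted p = 0.77). The 11 genes called in C1 and the 1 called in C2 are therefore not shown to part the clones. Leaving out single WT or C1 libraries changed this count: 6 of the 38 were higher in C2 without either WT library and 10 without C1 replicate 1. Those fits called 54 genes in all without WT replicate 1, 50 without WT replicate 2 and 345 without C1 replicate 1, of 17129 tested. Without C1 replicate 2, 62 genes were called and 0 of the 38.

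Of the 43 other replication genes, 8 fell in C1 against WT with the block and 0 rose, with a median of -0.33, where 4.07% of all tested genes fell and 2.96% rose. ORC1, ORC6, CDC7 and RECQL4 were among them. ORC1, the largest subunit of the origin recognition complex, differed by -1.03 (edgeR adjusted p = 0.015), and CDC7, the kinase that triggers licensed origins, by -0.77 (edgeR adjusted p = 0.037). In C2, 0 of the 43 passed in edgeR, where 2.59% of all tested genes fell and 1.94% rose. At an unadjusted p under 0.05 there were 7 of the 43, beside 3258 of all 17129 tested genes. No gene of the G1 control list or of the G2 and mitosis list passed in edgeR in either clone with the block. In each clone, 4 of 26 and 0 of 30 had an unadjusted p under 0.05. Of all 17129 tested genes, 3649 in C1 and 3258 in C2 were under it. The other replication genes beyond TICRR, ASF1B, ORC1, ORC4, RFC1 and ORC2 were named here after their values were seen.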

How the data were processed

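Raw counts per gene were deposited for 6 libraries, 1 column each, with 5 HTSeq totals that were left out, per the file headers. Per the submitters' processing notes, the authors used cutadapt 1.6, STAR 2.5.0a, HTSeq 0.5.3 and hg19. The strand setting is not given in the sources used here, so reads of genes that overlap on opposite strands cannot be told apart. Groups and replicate numbers come from the titles.

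Testing used edgeR 4.0.16 in R 4.3.3 (filterByExpr by group, TMM scaling, robust quasi-likelihood test, Benjamini-Hochberg adjustment over 17129 genes, threshold 0.05). Log2 values carry a prior count of 2. The fit had all 6 libraries and 1 mean per group (3 residual degrees of freedom), and the replicate number was added as a block as an alternative (2 residual degrees of freedom). With deviations of same-numbered libraries from their group means correlating over genes by 0.584 (WT and C1), 0.634 (WT and C2) and 0.701 (C1 and C2), and each pair passing 0.1, the numbers were treated as pairs. No label backs this pairing, and in groups of 2 the deviations of number 1 mirror those of number 2. Intervals cover 95%, unadjusted for multiple genes.

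The difference between the numbers comes from the blocked fit. Other settings were DESeq2 1.42.0, limma-voom (limma 3.58.1), RLE scaling, library totals, no filter and leaving out libraries. Combinations of these with the block were added after seeing the data. The statistics were tested on simulated data. Exon lengths are from GENCODE 29 by gene ID, and promoters from RefSeq by symbol, on a build other than that of the counts, with no positions converted.

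The members, roles, lists and tests were chosen with earlier results of these data known. Per-library values are given for the member of each role with the largest and smallest difference between numbers, for E2F1, CCNE1, CCNE2, PCNA, MCM2, MCM10, RRM2, TYMS, TK1 and CLSPN, and for members called in a clone. From the 3 other lists, the 3 largest and 3 smallest differences and CDKN1A, CDKN1B, CCND1, E2F7, CCNA2 and MYC are named. Others were named after their values were seen, MCM5 and CDC25A included.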

Additional observations from a re-analysis of the deposited data

Results flagged for a closer look

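For 4 of the 38 genes, both clones lay on one side of WT among the libraries numbered 1 and on the other side among those numbered 2. The mean of the clones minus WT, in log2 CPM, went from -0.43 to 0.78 for MCM5 (a change of 1.21), from -0.64 to 0.11 for MCM6 (0.76), from -0.33 to 0.21 for SLBP (0.54) and from -0.26 to 0.13 for POLA1 (0.39). The change itself was not tested. It was found for 10.5% of the 38 genes and for 18.4% of all 17129 tested genes. MCM5 and MCM6 are subunits of the helicase ring, SLBP binds histone transcripts and POLA1 is the catalytic subunit of DNA polymerase alpha.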

How the results depend on the processing

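The difference between the replicate numbers kept its direction for all 38 genes under every setting run. Of the 38, 38 passed under RLE scaling, library totals, DESeq2, limma-voom and without either C1 library. In these fits 9.95% to 12.3% of all tested genes fell. 37 passed without either WT library, where 13% of all tested genes fell. Without C2 replicate 1 or 2, 33 passed, where 2.34% and 2.45% fell. The genes called over the whole table fell from 4229 to 706 and 702 without C2 replicate 1 or 2 (at most 4624 without another library), and to 682 without both C2 libraries.

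For the clones the replicate block decided the calls. In C1 against WT the genes called went from 2 to 1204, and the members called lower from 0 to 11. Other fits with the block gave 1193 and 11 (RLE scaling), 1441 and 18 (library totals, with a median of -0.67), 1158 and 15 (DESeq2) and 1057 and 9 (limma-voom). Of all tested genes, 4.07% fell with the block in C1, then 4.05%, 6.25%, 3.66% and 3.58%. In C2 against WT the genes called went from 2 to 777 with the block, and to 760, 935, 839 and 582 in the same order of settings. In each of these 1 member was lower, GINS2, where 2% to 4.07% of all tested genes fell. For the mean of the clones the genes called went from 34 to 1669 with the block and to 1655, 1943, 1520 and 1476, and the members called lower from 0 to 4, then 4, 10, 4 and 3. In that comparison 5.63% of all tested genes fell with the block, then 5.59%, 8.59%, 4.67% and 4.88%. The median of C2 against C1 moved from 0.45 to 0.50 with the block (0.49 in DESeq2, with 20 genes called, and 0.52 in limma-voom). Without the block, DESeq2 called 270, 209 and 393 genes in C1, in C2 and in their mean, limma-voom 11, 12 and 64, and edgeR without a filter on low counts 296, 209 and 436. Library totals gave medians of -0.18 in C2 and -0.44 for the mean. The cause was not tested.

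Leaving out 1 library moved the medians without the block to between -1.65 and 0.57 in C1, -1.21 and 1.13 in C2, -0.65 and 1.47 in C2 against C1, and -1 and 0.86 for the mean, since it leaves unequal numbers in the lines. With the block the medians in C1 stayed between -0.57 and -0.45, which is no independent check, as described above. Each of these fits leaves a line with a single library, so the counts that follow do not show whether a call holds. Over both kinds of fit, genes called ranged from 0 to 1582 in C1, 0 to 1734 in C2, 0 to 345 in C2 against C1 and 0 to 2233 for the mean. Members called lower ranged from 0 to 15 in C1, 0 to 2 in C2 and 0 to 8 for the mean, and members called higher from 0 to 2 in each of these and from 0 to 10 in C2 against C1. The higher ones in C1 were MCM5 and CCNE2 without WT replicate 1 and MCM5 without C1 replicate 1. Without the block, some signs turned without WT replicate 1 (and without C1 replicate 2 for MYBL2 at 0.15, TYMS at 0.36 and BRCA1 at 0.17). In C1 the range was -2.1 to 0.44 for CDT1, -2.1 to 0.71 for CDC45, -2.63 to 0.04 for GINS2, -2.76 to 0.56 for MCM10, -2.95 to 0.87 for MYBL2, -2.78 to 1.37 for TYMS, -2.69 to 0.18 for TK1 and -2.15 to 0.27 for BRCA1. It was -2.5 to 0.73 for GINS2 in C2, and -1.7 to 0.59 for CDT1, -2.07 to 0.38 for GINS2, -1.57 to 1.13 for MYBL2 and -1.56 to 0.46 for TK1 in the mean. With the block no sign turned for these genes. Depth limits E2F8 and CCNE2 most, with 27 and 31 counts in their lowest libraries.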
